A study of Mus musculus with 18 samples.

Results

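The 9 genes described here are sugar transporters and relatives, named for glucose sensing, of the SGLT family (Slc5a1, Slc5a4a, Slc5a4b, Slc5a9 and Slc5a11) and of the GLUT family (Slc2a1, Slc2a2, Slc2a5 and Slc2a7). They were chosen by name and known function, with earlier results of these data known, and are 9 of the 47729 genes in each count table. RNA-seq counts of polyadenylated RNA came from FACS-sorted epithelial cells of the mouse ileum, the last stretch of the small intestine. The groups were 6 libraries from lactating females at day 7 of lactation, 6 from virgin males and 6 from virgin females, with both virgin groups matched in age to the lactating animals. All mice had RM3 chow during breeding and RM1 chow during maintenance and the experiment. The labels used here give neither strain, age in weeks nor the markers of the sort. They do not say whether every library came from its own animal, so p-values measure the spread between these libraries, which may in part be technical.

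Dietary sugar enters the enterocyte from the gut lumen and leaves it towards the blood. SGLT1, the product of Slc5a1, carries glucose and galactose in across the brush border together with sodium, and GLUT5, the product of Slc2a5, lets fructose in. GLUT2, from Slc2a2, lets all of these sugars out across the basolateral membrane. SGLT3 proteins are close relatives of SGLT1: the human form changes the membrane voltage when it binds glucose but does not transport it, and is therefore called a glucose sensor. The mouse has neighbouring copies of that gene, Slc5a4a (SGLT3a) and Slc5a4b (SGLT3b). SGLT4, from Slc5a9, carries mannose and fructose, and Slc5a11 encodes a sodium-coupled myo-inositol transporter also called SMIT2 or SGLT6. GLUT1, from Slc2a1, supplies glucose to most cell types, and GLUT7, from Slc2a7, is a relative of GLUT5 found in the small intestine.

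The results turn on Slc5a4a and Slc5a4b, so their sequences were compared first, to see whether reads of one copy could be counted for the other. On mouse chromosome 10 (GRCm38, GENCODE M21), Slc5a4b lies at chr10:76057494-76110961 on the minus strand and Slc5a4a at chr10:76147451-76189265 on the plus strand. Their starts face each other across 36489 bases that hold 0 other protein-coding genes. The coding sequences, 1971 bases in Slc5a4a and 1983 in Slc5a4b, were 79.6% identical over aligned bases. Of 2006 stretches of 50 bases in the annotated transcripts of Slc5a4a, 1 was also present in Slc5a4b. No stretch of 75 or of 100 bases was shared. The longest common run, of 50 bases, lies in the window shown here, coding bases 1104 to 1203 of each gene, in which capitals mark the 9 of 100 positions that differ.
Slc5a4a: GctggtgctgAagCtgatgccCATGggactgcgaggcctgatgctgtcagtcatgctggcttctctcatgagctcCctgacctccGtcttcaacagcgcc
Slc5a4b: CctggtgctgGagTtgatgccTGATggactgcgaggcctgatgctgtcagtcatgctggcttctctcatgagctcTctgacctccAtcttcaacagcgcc
Read length, and how reads with several mapping places were treated, are not stated.

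The promoter windows of the pair are shown because the copies had differences of opposite sign in lactating against virgin females. Neither difference had an adjusted p under 0.05, and no link to the promoter letters was tested. The windows run from 250 bases before to 50 bases after the RefSeq transcript start (GRCm38.p6), at chr10:76147201-76147500 on the plus strand for Slc5a4a and chr10:76110969-76111268 on the minus strand for Slc5a4b. Capitals mark the longest run of bases the windows share on the same strand.
Slc5a4a: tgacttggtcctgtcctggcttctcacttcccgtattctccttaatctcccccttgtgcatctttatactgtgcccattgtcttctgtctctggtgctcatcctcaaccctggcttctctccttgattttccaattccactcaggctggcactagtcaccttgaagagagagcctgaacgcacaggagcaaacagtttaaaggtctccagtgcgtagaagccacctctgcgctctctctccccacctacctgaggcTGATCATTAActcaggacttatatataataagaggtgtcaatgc
Slc5a4b: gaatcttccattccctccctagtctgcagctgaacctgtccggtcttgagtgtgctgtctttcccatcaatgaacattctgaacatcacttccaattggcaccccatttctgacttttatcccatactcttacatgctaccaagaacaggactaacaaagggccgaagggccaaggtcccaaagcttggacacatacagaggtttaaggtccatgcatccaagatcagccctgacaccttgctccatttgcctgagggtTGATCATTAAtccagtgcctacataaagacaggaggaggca
The windows were 64.7% identical over aligned bases. The same alignment gave 60.3% to 65.8% between the coding sequences of an SGLT and a GLUT member. The value for the windows therefore cannot be read as conservation. Positions in the windows count from the RefSeq starts. For Slc5a4b the whole window lies upstream of the GENCODE start of the gene, at 76110961. The shared run, TGATCATTAA, begins 7 bases into the transcript of Slc5a4a and 10 bases into that of Slc5a4b, and was found on either strand in 12 of 32851 mouse promoter windows, or 0.0365%. It was picked as the longest run these windows share, so both are among the 12. Its rarity is therefore no result about the pair. The letters GTTAAT, a core of the site of the HNF1 factors that drive many enterocyte genes, occurred in Slc5a4a and in none of the 7 other members with a window, against 7.1% of all windows, and overlap the shared run. The letters TTTATG, bound by CDX factors of the gut, occurred in Slc5a4b only, against 11.9% of all windows. The STAT5 letters TTCNNNGAA, a motif of prolactin signalling, were in 0 of the 8 members' windows, against 8.3% of all windows. Each motif was searched on both strands, and a match is a description of letters, not of a bound site.

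Libraries held 37984403 to 46046333 counts in the lactating group, 34577104 to 47748407 in virgin males and 36508736 to 49039300 in virgin females. All 9 genes were among the 15572 that passed the filter on low counts and were tested. The smallest member count in any library was 134. Epithelial markers (Epcam, Cdh1, Krt8, Krt18, Krt20 and Vil1) summed to 10500 to 19700 CPM (counts scaled to library size) in lactating, 10300 to 13200 in virgin male and 10500 to 19200 in virgin female libraries. Leukocyte markers summed to at most 44.2 CPM and markers of stroma, vessel and muscle to at most 6.26 CPM in any library, and none of either list was at 0 in all 18. Virgin female library 2 and virgin male library 6 stood apart in the non-coding transcript Gm42418, with 31050 and 29980 CPM against 1230 to 4477 CPM elsewhere. Without that pair, the Slc5a4a difference was 1.13 between lactating and virgin females and 2.05 between lactating females and virgin males on the log2 scale, and the calls were the same.

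Per length of transcript, Slc5a1 was by far the most abundant of the 9 genes, with a mean of 513.5 TPM (counts scaled to transcript length and library size) over the 18 libraries (range 292.5 to 831.2). Then came Slc5a4b at 59.2 TPM, Slc5a11 at 57.4, Slc5a4a at 49.4, Slc2a5 at 29.6, Slc2a2 at 17.8, Slc5a9 at 12.5, Slc2a7 at 9.32 and Slc2a1 at 5.19. Slc5a1 stood above the next gene in 18 of 18 libraries, Slc2a5 above Slc2a2 in 17 of 18 and Slc5a9 above Slc2a7 in 17 of 18. The neighbours Slc5a4b and Slc5a11, Slc5a11 and Slc5a4a, and Slc5a4a and Slc2a5 did not keep their order, the first-named gene being higher in 8, 12 and 9 of 18 libraries. Slc2a2 was above Slc5a9 in 13 of 18 libraries and Slc2a7 above Slc2a1 in 15 of 18, so these orders were not constant either. The place of Slc5a4a in this order differed between the groups. Slc5a4a was the second most abundant member in lactating females, at 87.8 ± 18.1 TPM, against a mean of 22.5 TPM in virgin males, where it ranked 5, and 37.7 ± 19.8 TPM in virgin females, where it ranked 4 (SD, n = 6 each). Its TPM exceeded that of Slc5a4b in 6 of 6 lactating libraries, in 0 of 6 virgin male libraries and in 0 of 6 virgin female libraries. The same counts held against Slc5a11. Slc5a4a made up 10.7% ± 2.31 of the summed TPM of the 9 genes in lactating females, against 3.54% ± 0.763 in virgin males and 4.42% ± 0.839 in virgin females (SD, n = 6 each).

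**Figure D1:**
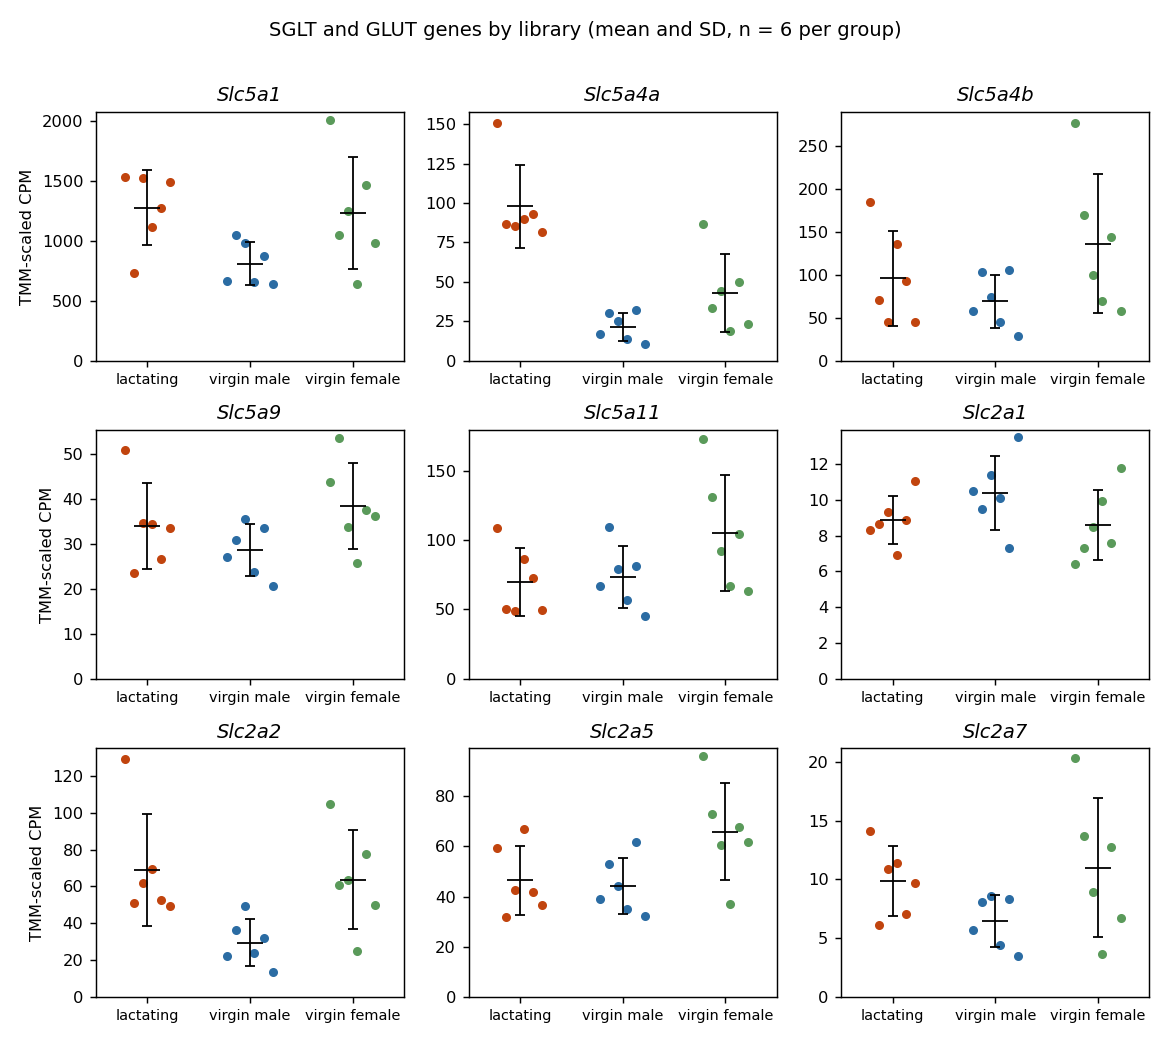
Level of each of the 9 genes in CPM scaled by trimmed mean of M-values (TMM), by library (points), with group mean and SD (bars, n = 6 per group); each panel has its own axis from 0. Lactating Slc5a4a libraries sit between 81.8 and 150.6 CPM and all virgin male libraries between 10.9 and 32.0 CPM, while most other panels overlap between groups.

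In lactating against virgin females, the comparison for lactation within 1 sex, none of the 9 genes was called by edgeR's quasi-likelihood test with Benjamini-Hochberg adjustment over 15572 genes at 0.05. The same test called 9 genes in all, 0.0578% of those tested, and DESeq2 also called 0 of the 9 members. Slc5a4a, the SGLT3a gene, had the largest difference of the 9. It measured 81.8 CPM in the lowest, 88.1 in the median and 150.6 in the highest lactating library, against 18.6, 38.9 and 86.9 CPM in virgin females. The fold was 2.29, a log2 fold change of 1.19 ± 0.33 (SE), with edgeR adjusted p = 0.322, rank 81 of 15572. The groups overlapped: 3 of the 6 lactating libraries exceeded the highest virgin female library, where 0.289% of all genes had no overlap. In bulk samples such as these, fewer cells of a type and less RNA per cell cannot be told apart.

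The other 8 genes differed less between lactating and virgin females. Slc5a4b had 45.1 CPM in the lowest, 81.5 in the median and 184.6 in the highest lactating library, against 57.5, 121.8 and 276.8 CPM in virgin females, a log2 fold change of -0.51 ± 0.41. Thus the neighbouring copies had differences of opposite sign, though neither passed the adjusted threshold. The lowest log2 fold change was that of Slc5a11, the myo-inositol transporter, at -0.59 ± 0.27 (SE; edgeR adjusted p = 0.732), and Slc2a5, the fructose carrier, had -0.51 ± 0.22 (edgeR adjusted p = 0.723). Slc5a1 itself averaged 1275 ± 314 CPM (SD, n = 6) in lactating females, against 1229 ± 469 CPM (n = 6) in virgin females, a log2 fold change of 0.05 ± 0.24. Slc2a2, Slc5a9, Slc2a7 and Slc2a1 had log2 fold changes between -0.18 and 0.12. Over the 9 genes the median was -0.15, against -0.0026 over all genes tested, with 3 of 9 (Slc5a4a, Slc5a11 and Slc2a5) at an unadjusted p under 0.05, against 6.44% of all genes.

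In lactating females against virgin males, groups that differ in sex and reproductive state together, Slc5a4a was the 1 member called, and it rose. Among all genes the share called was 0.764%, and the share called higher 0.629%. Slc5a4a had 10.9 CPM in the lowest, 21.1 in the median and 32.0 in the highest virgin male library, so the lowest lactating library, at 81.8 CPM, was above every male library; 1.34% of all genes had no overlap between these groups. The fold was 4.56, a log2 fold change of 2.19 ± 0.34 (SE), with edgeR adjusted p = 0.00208, and Slc5a4a ranked 24 of 15572 by p. Slc2a2, the GLUT2 exit route, also separated the groups, with 49.7 CPM in the lowest, 57.3 in the median and 129.3 in the highest lactating library, against 13.3, 27.9 and 49.5 CPM in virgin males. The lowest lactating and the highest male library were nearly level. Its log2 fold change of 1.23 ± 0.33 (SE) had an edgeR adjusted p of 0.0988, and DESeq2, which called 2.63% of all genes, put it past the threshold at 0.0131. The others ranged from -0.23 for Slc2a1 to 0.66 for Slc5a1, whose adjusted p was 0.218.

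Cell markers differed between lactating females and virgin males as well. Of the 8 absorptive enterocyte markers, 8 had positive log2 fold changes, with a median of 0.75, and none was called by edgeR or DESeq2. An unadjusted p under 0.05 was reached by 5 of them, against 15.9% of all genes. Of 35 cell cycle genes, 34 had negative values, with a median of -0.28 and none called, where 51.1% of all genes were negative. The enteroendocrine hormone gene Gcg was called by edgeR at 0.90 (adjusted p = 0.046), as was Vim, of the stroma, vessel and muscle list, at 0.87 (adjusted p = 0.00812). Of 6 markers of the proximal small intestine, edgeR called S100g at 4.71 (adjusted p = 9.56e-04) and Slc40a1 at 1.76 (adjusted p = 8.63e-04). In that list 3 values were positive and 3 negative. The bile acid carriers Slc10a2 and Fabp6, markers of the ileum, were at 1.11 and 1.07 and were called by DESeq2 but not by edgeR. Apart from the cell cycle score, which was also fitted as a covariate, their part in the Slc5a4a difference was not tested.

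In virgin males against virgin females no member was called by edgeR or by DESeq2, with 0.0835% of all genes called by edgeR. The log2 fold changes of 8 of the 9 genes were negative, with a median of -0.60, against -0.013 over all genes, of which 52% were negative. At an unadjusted p under 0.05 there were 7 of 9, all lower in males, against 8.32% of all genes. Slc2a2 had the lowest value, -1.11 ± 0.33, with 29.5 ± 12.7 CPM (SD, n = 6) in males, against 63.6 ± 26.9 CPM (n = 6) in females (edgeR adjusted p = 0.565). Every male library was below the female mean, but the groups overlapped, as in 9 of 9 members; 0.43% of all genes had no overlap. Slc5a4a followed at -0.995 ± 0.33 and Slc5a4b at -0.98 ± 0.42. Slc2a1, the GLUT1 gene of many cell types, was the exception at 0.27 ± 0.16. Each group enters 2 of the 3 comparisons, so the comparisons share libraries.

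**Figure D2:**
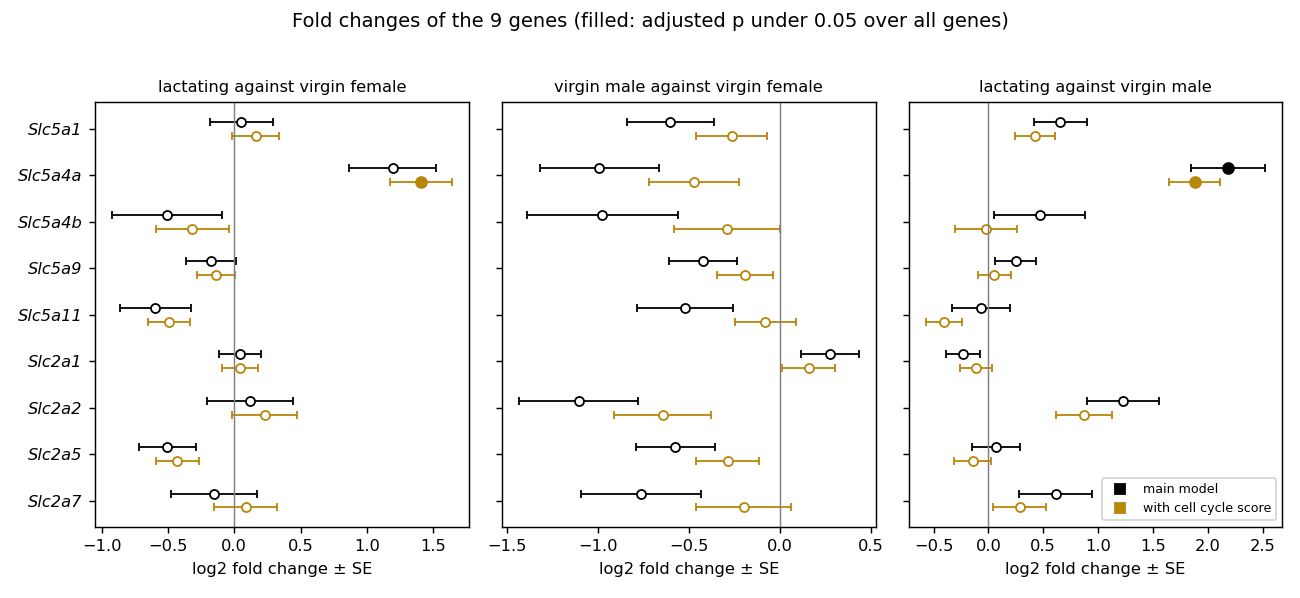
Log2 fold change with SE of the 9 genes in the 3 comparisons, from the main edgeR model (black) and with the cell cycle score of each library as a covariate (ochre); filled points have an adjusted p under 0.05 over all genes tested. Slc5a4a is filled in lactating against virgin male in both models, at 2.19 and 1.88, and in lactating against virgin female with the covariate, at 1.41.

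Crypt cells divide and villus cells absorb, and libraries differed within each group in the RNA of dividing cells. A cell cycle score, the mean log2 CPM of 35 proliferation genes, was 4.34 ± 0.58 in lactating, 4.70 ± 0.16 in virgin male and 4.27 ± 0.57 in virgin female libraries (SD, n = 6 each). In virgin males against virgin females, 34 of 35 cell cycle genes had a positive log2 fold change, with a median of 0.35, and 8 of 8 markers of absorptive enterocytes a negative one, with a median of -0.70. Of both lists edgeR and DESeq2 called 0, with 0 cell cycle and 5 enterocyte genes at an unadjusted p under 0.05. Among all genes 8.32% had such a p, and 52% a negative log2 fold change. Over the 18 libraries the relation to the score was negative for 8 of the 9 genes and positive for Slc2a1. Slc5a4b had the largest pooled Pearson's r in size, though not the largest rho (Pearson's r = -0.785, permutation p = 6e-05; Spearman's rho = -0.709, permutation p = 0.00126; adjusted over the 9 relations computed, 0.00054 and 0.00378). Slc2a1 had r = 0.602 (permutation p = 0.00833) and rho = 0.589 (permutation p = 0.0116), with adjusted values of 0.00937 and 0.0128. Slc5a4a, whose group means differ, had the smallest pooled r in size, with r = -0.586 (permutation p = 0.0104) and rho = -0.581 (permutation p = 0.0128), adjusted 0.0104 and 0.0128.

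Lactating library 1 and virgin female library 1 lay farthest from the median score. Without them the pooled r for Slc5a4a kept its sign at -0.40 (permutation p = 0.126, adjusted 0.126), but its adjusted p was no longer under 0.05. With all 18 libraries centred on their group means, which takes out the group difference, r for Slc5a4a was -0.725 (permutation p = 0.00073, adjusted 0.00154), for Slc5a11 -0.819 and for Slc5a4b -0.759. Without the same pair, for Slc5a4b r was -0.64 (permutation p = 0.00742, adjusted 0.0177) and for Slc2a1 0.52 (permutation p = 0.0391, adjusted 0.0485). Within groups, Slc5a4a had r = -0.81 in lactating, -0.73 in virgin male and -0.92 in virgin female libraries. The 5 lactating libraries other than library 1 lay within a narrow band of 81.8 to 93.2 CPM of Slc5a4a, while their scores ran from 3.96 to 5.05. Slc5a4b, in contrast, ranged from 45.1 to 136 CPM in those libraries.

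With the cell cycle score as a covariate in the same edgeR model, the lactating females' Slc5a4a difference from virgin females was 1.41 ± 0.23 (SE) on the log2 scale, with adjusted p = 0.0109. Slc5a4a was then the 1 of 9 genes called in that comparison, where 0.392% of all genes were called. Of 26 alternatives to the main model, only the one with this score called Slc5a4a there. Against virgin males the Slc5a4a difference was 1.88 ± 0.24, with adjusted p = 2.84e-04, where 0.861% of all genes were called. The difference of males from females was -0.47 in that model, and the median over the 9 genes -0.27. Of the 9, 1 gene, Slc2a2, then had an unadjusted p under 0.05 between virgin males and females, against 2.64% of all genes. Slc5a11 stayed at -0.49 in lactating against virgin females (adjusted p = 0.202). A like score of 8 stem cell genes, also of the crypt, was not fitted as a covariate. Its r with Slc5a4a over the 18 libraries was -0.733 (permutation p = 0.00054, adjusted 0.00155).

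Libraries of near-equal score can be set side by side. Lactating library 2, with a score of 5.05, had 86.4 CPM of Slc5a4a, against 18.6 CPM in virgin female library 4, with a score of 5.01. Their Slc5a4b levels were 70.2 CPM in the lactating and 69.9 CPM in the virgin female library. At the villus end, lactating library 1, with a score of 3.44, had 150.6 CPM of Slc5a4a and 184.6 CPM of Slc5a4b, against 86.9 and 276.8 CPM in virgin female library 1, with a score of 3.50. In Slc5a4a, each of the 6 lactating libraries exceeded the virgin female library nearest to it in score, by 1.73 to 4.64 times, with a median of 2.4. These 6 comparisons rest on 5 virgin female libraries, since library 3 was nearest to 2 lactating ones. Villus tip markers were not matched. Their mean log2 CPM was 8.165 in lactating library 1 and 6.933 in virgin female library 1. In lactating library 2 and virgin female library 4 it was 5.854 and 5.704. The share of all genes higher in every such pair was not computed.

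**Figure D3:**
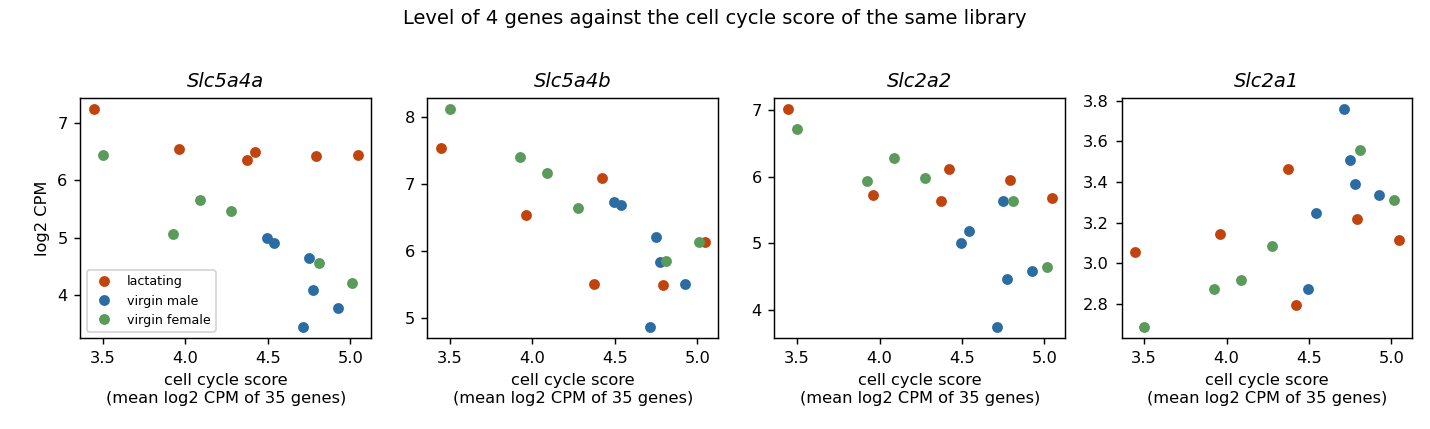
Log2 CPM of Slc5a4a, Slc5a4b, Slc2a2 and Slc2a1 (vertical) against the cell cycle score of the same library (horizontal), 1 point per library, coloured by group. Slc5a4a of lactating libraries lies above the virgin libraries of like score, while the groups mix in the Slc5a4b panel (r over 18 libraries = -0.785) and Slc2a1 runs upwards (r = 0.602).

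A ratio within a library needs no scaling between libraries. The test of this ratio was chosen with earlier results of these data known, so its p-values are not independent of them. The counts of Slc5a4a divided by those of Slc5a4b gave 0.66 in the lowest, 1.12 in the median and 1.90 in the highest lactating library, against 0.293, 0.301 and 0.374 in virgin males and 0.198, 0.331 and 0.443 in virgin females. Every lactating library was above every virgin library of either sex. The mean log2 ratio was 0.20 ± 0.61 in lactating, -1.66 ± 0.14 in virgin male and -1.65 ± 0.43 in virgin female libraries (SD, n = 6 each). Lactating exceeded virgin females by 1.85, a 3.6-fold higher ratio (two-sided exact permutation p = 0.00216, the smallest that 6 against 6 allows; 0.00325 adjusted over the 3 comparisons). Against virgin males the difference was 1.86 (exact permutation p = 0.00216, adjusted 0.00325). Virgin males and virgin females differed by -0.01 (exact permutation p = 0.957), although each copy by itself was lower in males. Of 15571 genes tested, 0.18% had a ratio to Slc5a4b that did not overlap between lactating and virgin females, 0.238% between lactating females and virgin males, and 0.141% between virgin males and virgin females.

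**Figure D4:**
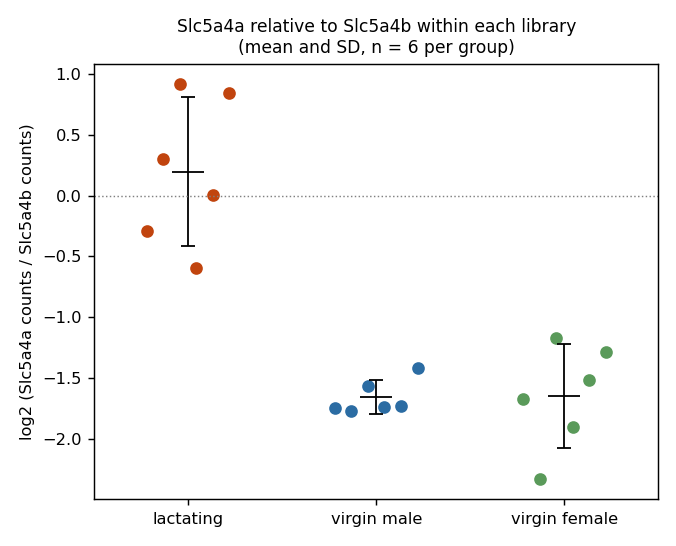
Log2 of Slc5a4a counts over Slc5a4b counts (vertical) in each library (points), with group mean and SD (bars, n = 6 per group); the dotted line marks equal counts. The 6 lactating libraries sit between -0.60 and 0.92, above all virgin male (-1.77 to -1.42) and virgin female (-2.33 to -1.17) libraries.

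The other members served as partners too. Set against each of the other 8 genes in turn, a choice made after the first ratio was seen, the log2 ratio of Slc5a4a was higher in lactating than in virgin females by 1.19 to 1.92, and the groups did not overlap for 7 of the 8 partners. Of 15564 genes, 2, or 0.0129%, had no overlap against 7 or more of these partners, and they were Slc5a4a and Bcl6, a transcriptional repressor. The cut of 7 is the number that Slc5a4a itself reached, so its own place among them was given beforehand. The partners also varied together (r = 0.937 for Slc5a4b and Slc5a11), so the 8 ratios are not separate results. Against virgin males the differences were 1.01 to 2.49 and none of the 8 overlapped, where 0.103% of genes reached 7 or more. Slc2a2 itself separated these groups, and 17.5% of all genes had no overlap in their ratio to it. For the other partners that share was 0.238% to 1.33%. Between virgin males and virgin females the differences ran from -1.20 to 0.18, and all 8 overlapped, where 0.0514% of genes reached 7 or more. Summed into 1 gene, Slc5a4a and Slc5a4b had a log2 fold change of 0.11 in lactating against virgin females and 1.10 ± 0.36 (SE) against virgin males, with edgeR adjusted p = 0.186.

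Lists of cell markers are given beside the Slc5a4a difference between lactating and virgin females. Villus tip markers had positive log2 fold changes in 5 of 6, with a median of 0.70, and summed to 539 to 4330 CPM in lactating and 534 to 1540 CPM in virgin female libraries. Enteroendocrine markers, of the hormone cells of the epithelium, were positive in 10 of 10, with a median of 0.61, and summed to 270 to 573 CPM in lactating and 264 to 354 CPM in virgin females. In this comparison edgeR called 0 of either list, and DESeq2 called the enteroendocrine genes Gcg, Tac1 and Chga, where it called 0.443% of all genes. There were 1 villus tip and 6 enteroendocrine genes at an unadjusted p under 0.05 in edgeR, against 6.44% of all genes. Of all genes, 50.6% had a negative log2 fold change. Stem cell and Paneth markers, of the crypt, were negative in 8 of 8 and 5 of 5, with medians of -0.20 and -0.45. Absorptive enterocyte markers were positive in 3 of 8, with a median of -0.01. Cell cycle genes were positive in 28 of 35, with a median of 0.10. No gene of these lists was called by edgeR or DESeq2 here, or had an unadjusted p under 0.05 in edgeR. Of the 6 markers of the proximal small intestine, S100g, a calcium-binding protein, and Slc40a1, the iron exporter, were called higher in lactating females, and the other 4 had negative values. Of the 5 ileum markers 4 were positive, and Fgf15, the bile acid signal of the ileum, was at -1.96 (edgeR adjusted p = 0.292), where DESeq2 called it. Markers of stroma, vessel and muscle summed to 3.23 to 6.26 CPM in lactating and 2.28 to 3.04 CPM in virgin females. These sums did not overlap, where 0.289% of all single genes had no overlap. Of the 8 genes on that list 2 were tested, 1 with a positive and 1 with a negative value, the latter at -0.22. The positive value was that of Vim, the intermediate filament vimentin, at 0.85 (edgeR adjusted p = 0.0506), which DESeq2 called. The part of these cells or positions in the Slc5a4a difference was not tested.

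Across the 18 libraries the genes most like Slc5a4a in log2 CPM, of 9411 compared, were Sulf2 (r = 0.933), Slc31a1 (0.921), Slc39a4 (0.917), Vps52 (0.917) and Fgl2 (0.907). Slc31a1 is a copper importer, Slc39a4 a zinc importer, and Sulf2 a sulfatase of heparan sulfate. For Slc5a1 they were Syap1 (0.96), Abcb10 (0.958) and Edn3 (0.957), and for Slc2a2 Gdpd2 (0.944), Dlst (0.932) and Impa1 (0.926). Among the 9 genes, Slc5a4b was most like Slc5a11, with r = 0.937 and 0.969 after centring on group means. The copies Slc5a4a and Slc5a4b had r = 0.524, and 0.84 after centring. After centring, r with Slc5a4a was 0.831 for Sulf2, 0.69 for Slc31a1, 0.746 for Slc39a4, 0.803 for Vps52 and 0.761 for Fgl2. Their ranking used the pooled values, which include the differences between groups. These correlations describe libraries that differ in group, in depth and along the crypt to villus range.

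The 4 lists of other genes of sugar handling gave 0 calls by edgeR in all 3 comparisons, and 1 by DESeq2. At an unadjusted p under 0.05, lactating against virgin females had 2 of 12 other transporters, 4 of 20 sensing and control genes, 2 of 15 digestion genes and 0 of 9 sodium gradient genes, against 6.44% of all genes. Of 19 other sugar and SLC2 or SLC5 transporters, 12 were tested, with a median log2 fold change of -0.01 in lactating against virgin females; Slc5a6, the vitamin transporter, reached 1.15 in lactating females against virgin males (edgeR adjusted p = 0.129), where DESeq2 called it. The renal glucose carrier Slc5a2 averaged 0.0308 CPM in lactating and 0.0116 CPM in virgin females, under the level of 3 counts per library (0.0549 to 0.0882 CPM). Of 25 genes of sugar sensing and its control, 20 were tested, with medians of -0.10 in lactating against virgin females and -0.14 against virgin males. The sweet taste receptor gene Tas1r2 averaged 0.0927 CPM in lactating and 0.0712 CPM in virgin females and was not tested, while its partner Tas1r3 averaged 1.09 CPM in lactating and 1.22 CPM in virgin females. Mlxipl, the carbohydrate response factor ChREBP, had a log2 fold change of -0.10 and Sgk1, a kinase that raises transporter activity, 0.11.

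Sugar digestion and the first steps inside the cell had 15 of 16 genes tested, with medians of -0.02 in lactating against virgin females, -0.22 in virgin males against virgin females and 0.35 in lactating females against virgin males. In the order of those comparisons, the log2 fold changes of sucrase-isomaltase, Sis, were 0.01, -0.28 and 0.29, and those of lactase, Lct, -0.49, -1.07 and 0.58. The 9 genes of the sodium gradient that drives SGLT transport were all tested, with a median log2 fold change of -0.03 in lactating against virgin females.

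The other members lie at chr5:33104219-33162870 (Slc5a1, plus strand), chr4:111875375-111902918 (Slc5a9, minus), chr7:123214780-123273253 (Slc5a11, plus), chr4:119108711-119137983 (Slc2a1, plus), chr3:28697903-28731359 (Slc2a2, plus), chr4:150119283-150144169 (Slc2a5, plus) and chr4:150148972-150168482 (Slc2a7, plus) in GRCm38. Slc2a7 begins 4802 bases after Slc2a5 ends. The neighbours had log2 fold changes of -0.15 for Slc2a7 and -0.51 for Slc2a5 in lactating against virgin females, and -0.77 and -0.58 in virgin males against virgin females. Genes overlapping the members had low counts: the pseudogene Gm15936 inside Slc5a1 had at most 134 in a library, and each other one at most 5. The library kit keeps the strand, and the strand setting of the counting is not stated.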

How the data were processed

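The authors deposited 1 table per library of whole-number read counts for 47729 Ensembl genes, used here as raw counts. HISAT2 2.0.4, featureCounts with Subread 2.0.0, FastQC 0.11.5, DESeq2 1.24.0 and build GRCm38 are named in the submitters' processing notes, without their roles. Per the labels' protocols, libraries were made with a directional kit after polyA enrichment. Symbols, positions and exon lengths came from GENCODE M21, which held 47310 of the identifiers. The annotation release of the counting is not given in the sources used here.

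Counts were filtered with filterByExpr, scaled by TMM and fitted in edgeR 4.0.16 (R 4.3.3) with a mean per group over all 18 libraries; quasi-likelihood p-values were Benjamini-Hochberg adjusted over 15572 genes, with a threshold of 0.05. The SE was taken from the fold change and the F statistic. Log2 CPM used a prior count of 2, and count ratios had 0.5 added to each count. TPM used the summed exon length. Exact permutation tests and correlations (100000 resamples) were run with scipy 1.17.1. DESeq2 1.42.0 and limma 3.58.1 gave alternatives. The edgeR step was tested on simulated counts.

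The members, the pathway and marker lists and the tests were chosen with earlier results of these data known. All 9 members were named, every listed gene could be named, and the 5 genes most like Slc5a4a and the 3 most like Slc5a1 and Slc2a2 were taken by Pearson's r among genes averaging at least 5 CPM, without predicted-gene names. Replicate numbers were not used to pair the libraries in the main model. A count of 3 in a library corresponds to 0.0549 to 0.0882 CPM.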

Additional observations from a re-analysis of the deposited data

Results flagged for a closer look

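Among 30 sets of 6 libraries examined for a library far from the rest, 2 were picked out, where chance alone picks about 1 in 20. Both were lactating library 1. It had 150.6 CPM of Slc5a4a, and the gap to the next library was 0.835 of the range of the lactating group, above Dixon's critical value. It also had 129.3 CPM of Slc2a2, with a gap of 0.749 of the range. The same library had the lowest cell cycle score of the 18, at 3.44, and the part of that in these levels was not tested. Leaving out each library in turn, this one included, gave a Slc5a4a log2 fold change of 1.03 to 1.52 in lactating against virgin females, and of 2.02 to 2.34 in lactating females against virgin males.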

How the results depend on the processing

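In lactating females against virgin males, Slc5a4a kept its direction and an edgeR, DESeq2 or limma adjusted p under 0.05 in all 26 alternatives that count it by itself, with log2 fold changes of 1.88 to 2.34. Summed with Slc5a4b it was 1.10 and no longer called. DESeq2 called 2 members there, Slc5a4a and Slc2a2. In lactating against virgin females, the 26 alternatives gave 1.03 to 1.52 for Slc5a4a with adjusted p of 0.0109 to 0.612, and 1 of them passed the threshold: with the cell cycle score the value was 1.41 and the members called were 1. The log2 ratio of Slc5a4a to Slc5a4b was 1.70 to 2.01 in lactating against virgin females and 1.71 to 2.02 against virgin males in the leave-one-out runs. Between virgin males and females that ratio ran from -0.15 to 0.0829 when single libraries were left out, and to Slc2a2 as partner it was 0.18.

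Some values that were not called changed sign. In lactating against virgin females, Slc2a7 was 0.0858 with the cell cycle score and 0.12 with limma voom, and Slc2a1 was -8e-06 without virgin female 2 and virgin male 6. Against virgin males, Slc5a4b, 0.47 in the main model, was -0.0219 and Slc2a5 -0.14 with the cell cycle score, and Slc2a5 was -0.0043 without that pair. Leaving out single libraries gave, in lactating against virgin females, -0.0805 to 0.25 for Slc5a1, -0.0315 to 0.15 for Slc2a1, -0.16 to 0.32 for Slc2a2 and -0.34 to 0.11 for Slc2a7, and, against virgin males, -0.24 to 0.079 for Slc5a11 and -0.0685 to 0.19 for Slc2a5. The cause of these changes was not tested.

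Same-numbered libraries of different groups correlated over 0.1 in 7 of 18 pairs (-0.22 to 0.48). In 4 of these 18 comparisons the library of the same number was the best match in the other group. Such correlations cannot decide whether the numbers mark a pairing or a shared batch. With the replicate number as a block, Slc5a4a was 1.34 (edgeR adjusted p = 0.085), -0.90 and 2.24 in the 3 comparisons, no member's call changed, and the Slc5a4a to Slc5a4b ratio had an exact sign-flip adjusted p of 0.0469 in both comparisons with lactating females.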
